A study of Mus musculus with 6 samples.

Results

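The genes described here are 39 mouse genes of antioxidant defence: the transcription factor NRF2 (Nfe2l2) and its inhibitor Keap1, genes that NRF2 is known to activate, the enzymes that make and recycle glutathione, the thioredoxin system, the peroxidases, the superoxide dismutases, the glutathione S-transferases and the metallothioneins. The list is one of functions: no measured value enters the rule that defines it. Its members were nevertheless chosen with earlier results of these data known. For each gene the probe set with the highest mean signal over the 6 arrays stood for the gene, and 35 of the 39 had a probe set of their own among the 18193 genes measured. For Prdx1 all 5 probe sets were also annotated to Gm21399, so none was used, and for Prdx5, Prdx6 and G6pdx the annotation used here named no probe set.

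MC3T3-E1 subclone 4, a clonal osteoblastic line from mouse calvaria, was grown in serum-containing medium and treated with ascorbic acid (AA) at 50 µg/ml for 5 days (3 arrays, AA replicates 1 to 3) or left untreated for the same 5 days (3 arrays, control replicates 1 to 3). Both groups therefore shared the line, the clone, the medium and the day, and differed in AA alone as the labels describe them. Total RNA of each was hybridized to 1 Affymetrix Mouse Genome 430 2.0 array. The cultures were wells of 6-well plates, and where replicates are wells of one culture the p-values measure only the spread between these wells, which may be technical.

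AA is a cofactor that osteoblasts need to hydroxylate procollagen, and it is itself a reducing agent. In cells at rest, KEAP1 binds NRF2 and delivers it to the proteasome. When oxidants or electrophiles modify KEAP1, NRF2 enters the nucleus, pairs with small MAF proteins and activates genes that carry the antioxidant response element (ARE). The products of these genes supply glutathione and NADPH, and peroxidases use glutathione or thioredoxin to reduce hydrogen peroxide and lipid peroxides. Metallothioneins are small cysteine-rich proteins that bind zinc and copper, and MTF1 activates their genes through metal response elements (MRE) when free zinc rises. In osteoblasts, much hydrogen peroxide arises in the secretory pathway, where procollagen and other proteins acquire disulphide bonds, and Gpx7 and Gpx8 are the glutathione peroxidase family members of that compartment.

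The sequences below are the start regions of the metallothionein pair and of those genes past the test whose window held a motif match, since the motifs are those of the factors just named. Each runs 250 bases before to 50 bases after the annotated start, 5′ to 3′ on the gene's own strand (RefSeq, GRCm38.p6), and capitals mark every match to the ARE letters TGACNNNGC or to the MRE letters TGCACNC or TGCGCNC on either strand. The Mt2 window is chr8:94172368-94172667, plus strand, the Mt1 window chr8:94178839-94179138, plus strand, the Gclm window chr3:122245307-122245606, plus strand, and the Me1 window chr9:86695865-86696164, minus strand.
Mt2: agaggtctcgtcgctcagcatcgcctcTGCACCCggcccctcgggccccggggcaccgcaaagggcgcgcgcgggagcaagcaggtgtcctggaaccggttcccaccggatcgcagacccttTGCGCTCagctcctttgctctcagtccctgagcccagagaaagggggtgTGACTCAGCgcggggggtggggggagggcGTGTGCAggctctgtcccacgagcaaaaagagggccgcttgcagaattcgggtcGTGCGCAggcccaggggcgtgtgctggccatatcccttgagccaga
Mt1: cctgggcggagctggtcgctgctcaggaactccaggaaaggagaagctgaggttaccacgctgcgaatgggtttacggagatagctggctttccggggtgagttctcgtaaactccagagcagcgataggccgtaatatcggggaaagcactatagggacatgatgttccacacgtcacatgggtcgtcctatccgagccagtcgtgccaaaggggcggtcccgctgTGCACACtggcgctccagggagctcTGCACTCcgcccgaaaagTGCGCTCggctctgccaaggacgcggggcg
Gclm: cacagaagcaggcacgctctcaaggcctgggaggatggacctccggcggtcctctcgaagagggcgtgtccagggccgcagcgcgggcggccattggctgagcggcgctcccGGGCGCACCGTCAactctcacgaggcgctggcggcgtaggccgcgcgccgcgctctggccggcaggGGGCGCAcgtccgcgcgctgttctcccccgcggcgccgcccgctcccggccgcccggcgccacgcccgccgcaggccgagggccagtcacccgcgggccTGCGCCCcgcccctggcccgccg
Me1: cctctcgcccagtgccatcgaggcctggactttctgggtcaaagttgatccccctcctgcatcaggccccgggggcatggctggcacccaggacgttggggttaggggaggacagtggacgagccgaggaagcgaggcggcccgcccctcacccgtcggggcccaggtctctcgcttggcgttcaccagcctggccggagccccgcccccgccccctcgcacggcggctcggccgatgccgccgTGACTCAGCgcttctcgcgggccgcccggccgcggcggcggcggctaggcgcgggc

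The Mt2 window held 4 MRE matches and 1 ARE match, TGACTCAGC at -79 from the start. The Mt1 window, on the same strand of the same chromosome, held 3 MRE matches and no ARE match. Me1 carried the same 9 letters as Mt2, TGACTCAGC, at -6. The window of another annotated Me1 start, chr9:86687228-86687527 on the minus strand, held neither motif. In Gclm the ARE letters at -134 lay on the opposite strand and overlapped an MRE match at -138. The Nqo1 window, chr8:107403156-107403455 on the minus strand, held neither motif. Bases outside these windows, further upstream included, were not searched for Nqo1 or any other gene. Of all 32851 windows of this length in the table, 12.4% held the ARE letters and 25.7% the MRE letters. Of the 42 windows of the 33 listed genes found in the table, 10 (23.8%) held the ARE letters and 11 (26.2%) the MRE letters. These matches describe the letters in the windows, and binding was not measured.

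At day 5, 4 of the 35 measured antioxidant genes passed the test between AA and control cultures, and they moved in both directions. Mt2 fell in AA cultures to 0.472 of the control level, and Nqo1 and Gclm fell to 0.625 and 0.697 of it. Me1 rose 1.43-fold, a call that holds only with the replicate number as a block (adjusted p = 0.226 without it). The median log2 fold change (AA over control) of the 35 genes was 0.00 and that of all 18193 genes was -0.02. By limma with Benjamini-Hochberg adjustment over all probe sets, 1 of the 35 genes was higher and 3 were lower at an adjusted p under 0.05, while 31 did not pass. In bulk RNA, fewer cells of a type and less RNA per cell cannot be told apart. Over all genes 4.07% were called higher and 3.85% lower, so at these shares a list of 35 genes would hold 1 to 2 called in each direction, and the members' counts are no result about the set as a whole. On the quantile-normalized scale AA replicates lay entirely above control replicates for 8 of the 35 genes and entirely below for 8, where all genes gave 13.0% and 15.1%. The calls depend on a variance model that follows signal. With a prior variance that does not, 0 genes of the whole array passed limma in either direction (1115 higher and 1135 lower at an unadjusted p under 0.05), and the adjusted p of the 4 genes was 0.376 to 0.416.

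**Figure D1:**
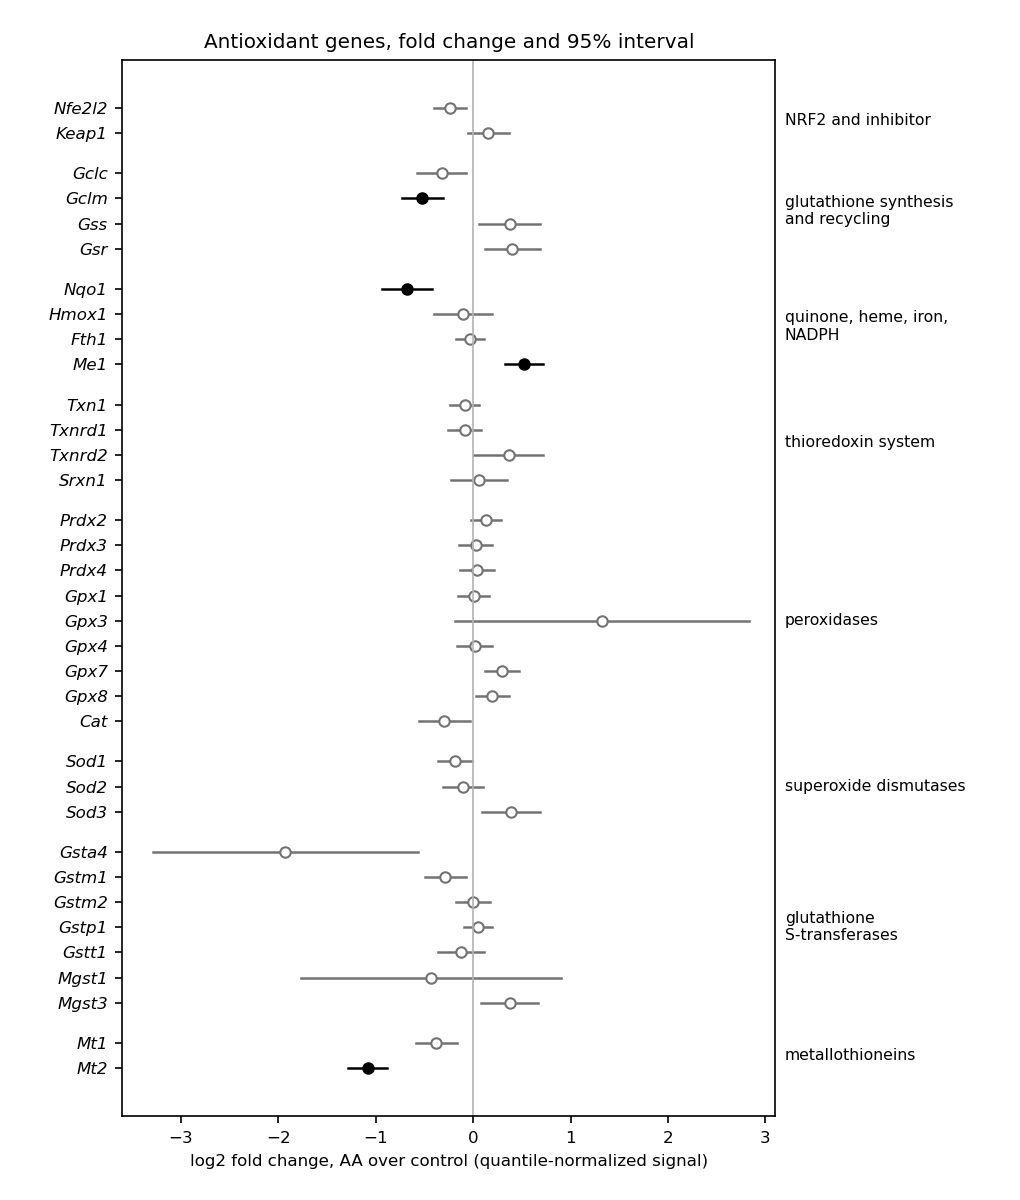
Log2 fold change, AA over control, of the 35 measured antioxidant genes (points) with 95% intervals from limma (bars, before adjustment for multiple tests), ordered by role. Filled points passed the test: Mt2, Nqo1 and Gclm lie left of 0, Me1 lies right of 0, and the long bars belong to the dim probe sets of Gpx3, Gsta4 and Mgst1.

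Of the members that passed, Mt2 fell furthest. Mt2, the metallothionein with a single probe set, had signals of 440, 399 and 448 in AA replicates 1, 2 and 3, against 856, 889 and 1023 in control replicates 1, 2 and 3. The AA signals lay close together, every one of them far below the lowest control signal. The log2 fold change was -1.08 (standard error 0.09, 95% interval -1.28 to -0.88, adjusted p = 0.000637), and the 3 differences between same-numbered arrays were -0.92, -1.14 and -1.19. Mt2 kept its call in all 18 alternatives that used the trended variance, leave-outs of single arrays included, with adjusted p of 0.000145 to 0.00883.

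Mt1, which encodes the neighbouring metallothionein, had 498, 353 and 410 in AA replicates 1, 2 and 3, against 602, 470 and 601 in control replicates. AA replicate 1 exceeded control replicate 2, so the groups overlapped, although each AA array was below the control array of the same number. The log2 fold change was -0.38 (standard error 0.09) and missed the threshold (adjusted p = 0.0540). It passed on the signals as deposited (adjusted p = 0.0405), after median centring (0.0458) and with the test restricted to probe sets brighter than the median or the upper quartile (0.0412 and 0.0309), and over all alternatives the adjusted p ranged from 0.0309 to 0.487. The other Mt1 probe set was dim, at 1.75 to 9.60 in AA and 1.65 to 7.99 in control arrays. Mt1 and Mt2 are close paralogs, and cross-hybridization between them was not tested. The median of both genes was -0.73.

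**Figure D2:**
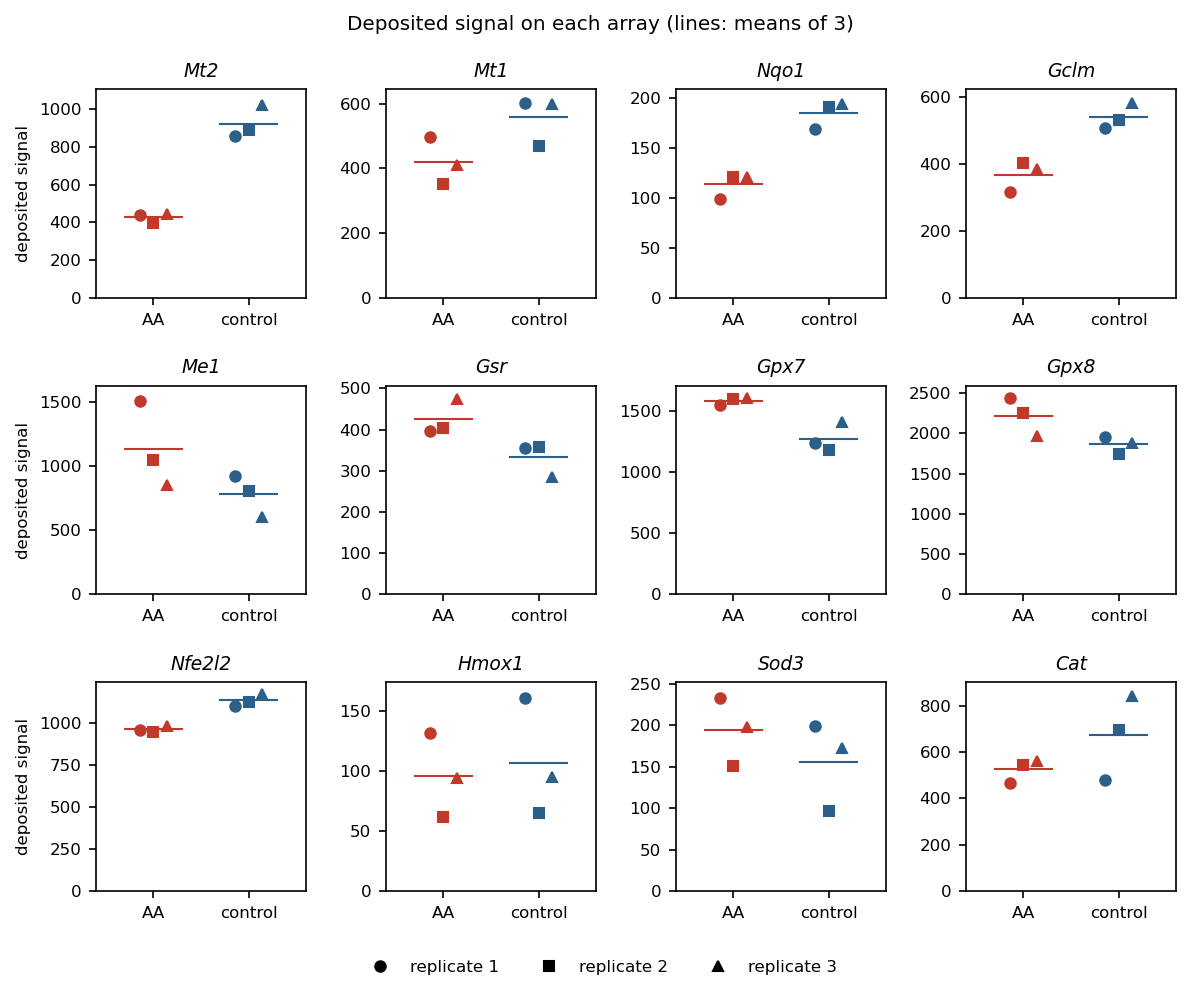
Deposited signal on each array (vertical axes, linear scale from 0) for 12 of the genes, with AA left of control, symbols for the replicate number and lines at the means of 3. Mt2 at 399 to 448 in AA against 856 to 1023 in control arrays is widely separated, Me1 overlaps between groups, and Hmox1 keeps the same order of replicates in both groups.

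Nfe2l2 and Keap1 themselves did not pass. Nfe2l2 had 961, 950 and 982 in AA replicates and 1106, 1129 and 1175 in control replicates. Every AA signal was below every control signal by a small margin (log2 fold change -0.24, 95% interval -0.40 to -0.08, adjusted p = 0.110). By the methods' t-test Nfe2l2 was lower at an unadjusted p under 0.01, but not after Benjamini-Hochberg adjustment (0.274). Keap1 had 266, 266 and 292 in AA against 251, 247 and 259 in control replicates, so AA lay above control (log2 fold change 0.16, adjusted p = 0.442). A second, dimmer Keap1 probe set had 67.6, 75.9 and 68.6 in AA against 66.2, 54.5 and 22.9 in control replicates, with control replicate 3 far below the others (adjusted p = 0.206).

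Of the 11 listed NRF2 targets 9 were measured, and 1 rose (Me1, with the replicate block only), 2 fell and 6 did not pass. Their median log2 fold change was -0.09, and within the pairs of same-numbered arrays it was -0.15, -0.06 and -0.04. Nqo1, the quinone reductase often read as a marker of NRF2 activity, had 98.7, 121 and 122 in AA replicates and 170, 192 and 195 in control replicates. All AA signals lay below all control signals. Its log2 fold change was -0.68 (standard error 0.11, 95% interval -0.93 to -0.42, adjusted p = 0.0122). The call was lost without replicate 2 (adjusted p = 0.0732) and, in the fit without the replicate block, without any of 4 single arrays (AA replicates 1 and 2, control replicates 2 and 3), where adjusted p was 0.0511 to 0.0742. Over the 18 alternatives with a trended variance the adjusted p of Nqo1 ranged from 0.00619 to 0.0742, with log2 fold changes of -0.76 to -0.50 over all 21.

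Gclm, the modifier subunit of glutamate-cysteine ligase, which catalyses the rate-limiting step of glutathione synthesis, had 316, 404 and 386 in AA replicates and 509, 532 and 581 in control replicates. Again no AA signal reached the lowest control signal. The log2 fold change was -0.52 (standard error 0.09, adjusted p = 0.0160), short of a 1.5-fold change. Without the replicate block and with 1 array left out, the call was lost for 5 of the 6 arrays, all but control replicate 1, at adjusted p of 0.0518 to 0.0847. The dimmer Gclm probe set gave -0.54 (adjusted p = 0.148). Gclc, the catalytic subunit, had 170, 177 and 192 in AA against 193, 252 and 250 in control replicates, with no overlap but with control replicate 1 only just above AA replicate 3. Its log2 fold change was -0.32 (adjusted p = 0.156).

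Me1, the cytosolic malic enzyme, which yields NADPH, was the member that rose. Its signals were 1506, 1049 and 853 in AA replicates 1, 2 and 3, against 928, 809 and 604 in control replicates 1, 2 and 3. Replicate 1 was highest and replicate 3 lowest in both groups, AA replicate 3 was below control replicate 1, and only the comparison of same-numbered arrays separated them (differences of 0.68, 0.36 and 0.52). The log2 fold change was 0.52 (standard error 0.09, adjusted p = 0.0122). Without the replicate block the adjusted p was 0.226, and with the mean of both Me1 probe sets it was 0.0521, over a range of 0.00835 to 0.499 in the alternatives with a trended variance. The other Me1 probe set gave 0.27 (adjusted p = 0.258). Among members, 10 of 35 (28.6%) kept one order of replicates in both groups, Me1, Mt1, Nqo1 and Hmox1 among them, where all genes gave 19.6%.

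The remaining NRF2 targets did not pass. Hmox1, which encodes the inducible heme oxygenase, had 132, 61.8 and 93.9 in AA replicates and 161, 64.7 and 95.2 in control replicates. Replicate 1 was highest and replicate 2 lowest in both groups, and the log2 fold change was -0.10 (95% interval -0.41 to 0.20, adjusted p = 0.760). Gsr, glutathione reductase, had 398, 405 and 473 in AA replicates, above the 355, 358 and 285 of control replicates (log2 fold change 0.40, adjusted p = 0.115). Its second probe set gave 0.45 (adjusted p = 0.0525, and 0.0341 without the replicate block, which passes). Txnrd1, the cytosolic thioredoxin reductase, had a log2 fold change of -0.09, Srxn1, which repairs overoxidized peroxiredoxins, 0.06, and Fth1, the ferritin heavy chain, -0.04, with 95% intervals that reach no further than -0.26 and 0.35.

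**Figure D3:**
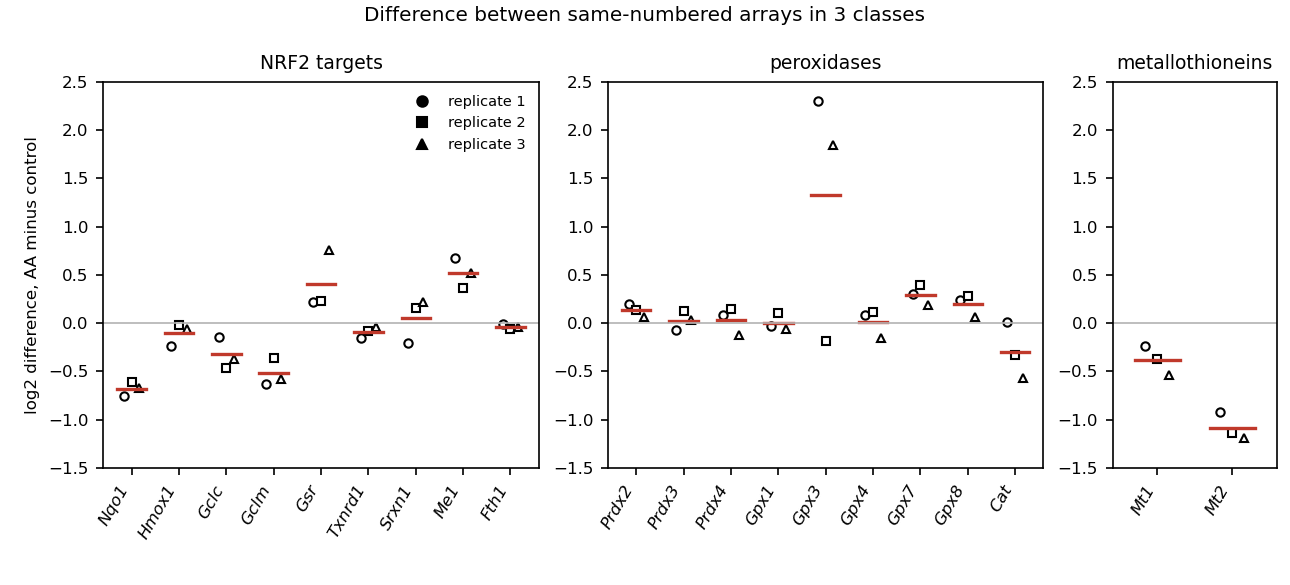
Log2 difference (AA minus control, vertical axis) between arrays of the same replicate number for NRF2 targets, peroxidases and metallothioneins, with symbols for the replicate number and red bars at the fitted log2 fold change. Metallothionein points all lie below 0, NRF2 targets lie on both sides, and the peroxidases other than Gpx3 lie within 0.6 of 0.

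Of the 12 listed peroxidases 9 were measured, and 0 passed limma in either direction, nor did any by the methods' t-test at an unadjusted p under 0.01. Of all 18193 genes, 1943 were higher and 2344 lower at an unadjusted limma p under 0.05. At that threshold Gpx7 and Gpx8 were higher and Cat was lower. The median log2 fold change was 0.04 (pairs 0.09, 0.12 and 0.03), and the sign of so small a median followed the arrays used (-0.02 without replicate 2). The peroxiredoxins Prdx2, Prdx3 and Prdx4, which reduce peroxides with electrons from thioredoxin, had log2 fold changes of 0.13, 0.03 and 0.04. Prdx2 had 2881, 2944 and 2802 in AA replicates, each above the 2390, 2485 and 2711 of control replicates (adjusted p = 0.364). Gpx1, the cytosolic glutathione peroxidase, and Gpx4, which reduces lipid hydroperoxides, had 0.01 and 0.02, with 95% intervals inside -0.16 and 0.20.

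Gpx7 and Gpx8 are the glutathione peroxidase family members of the endoplasmic reticulum. Both had higher signals on every AA array than on any control array but did not pass. Gpx7 had 1549, 1602 and 1608 in AA replicates and 1239, 1181 and 1409 in control replicates, with no overlap and with the AA replicates close together. The log2 fold change was 0.29 (95% interval 0.12 to 0.47, adjusted p = 0.0674). With the test restricted to brighter probe sets (above the median), where fewer tests are corrected for, its adjusted p was 0.0360, and over the alternatives with a trended variance 0.0337 to 0.352. Gpx8 had 2433, 2250 and 1964 in AA replicates and 1953, 1748 and 1882 in control replicates. AA replicate 3 was only just above control replicate 1 (log2 fold change 0.20, adjusted p = 0.206).

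Cat, the peroxisomal catalase, had 466, 545 and 563 in AA replicates and 479, 697 and 840 in control replicates. Replicate 1 was lowest in both groups and hardly differed between them (0.01), while replicates 2 and 3 were lower in AA by 0.33 and 0.57 on the log2 scale. The fitted log2 fold change was -0.30 (adjusted p = 0.211), and without replicate 1 it was -0.45 (adjusted p = 0.0464, in a range of 0.0418 to 0.809 over the alternatives with a trended variance). A second Cat probe set gave 0.11. Gpx3, the secreted glutathione peroxidase, was dim, with 16.9, 3.74 and 10.4 in AA against 3.19, 4.46 and 2.67 in control replicates, and AA replicate 2 lay among the controls (log2 fold change 1.32, 95% interval -0.19 to 2.83, adjusted p = 0.349).

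The last enzyme of glutathione synthesis, Gss, had 185, 166 and 208 in AA replicates and 122, 168 and 151 in control replicates, an overlap through control replicate 2 (log2 fold change 0.38, adjusted p = 0.190). Thioredoxin, Txn1, was bright on all arrays and had a log2 fold change of -0.09 (95% interval -0.24 to 0.06). Txnrd2, the mitochondrial thioredoxin reductase, had 77.1, 72.5 and 69.4 in AA against 59.8, 56.0 and 55.8 in control replicates, with no overlap (log2 fold change 0.36, adjusted p = 0.258). Another of its 4 probe sets had 70.2, 50.5 and 61.1 in AA against 31.6, 34.3 and 30.1 in control replicates and passed (log2 fold change 0.91, adjusted p = 0.0359). The remaining Txnrd2 probe sets gave 0.43 and 0.04 and did not pass (adjusted p = 0.246 and 0.952).

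Superoxide dismutases turn superoxide into hydrogen peroxide, in the cytosol (Sod1), the mitochondria (Sod2) and outside the cell (Sod3). None of the 3 passed limma by its brightest probe set (at an unadjusted p under 0.05 Sod3 was higher and Sod1 lower), and the probe sets of Sod2 and Sod3 differed from each other. At that unadjusted threshold 1943 of all 18193 genes were higher and 2344 lower. Sod3 had 233, 152 and 198 in AA replicates and 199, 96.8 and 173 in control replicates by the brightest probe set, which overlapped (log2 fold change 0.39, adjusted p = 0.152). By its other probe set the signals were 79.9, 51.8 and 72.1 in AA against 46.7, 20.4 and 15.6 in control replicates, without overlap (log2 fold change 1.44, adjusted p = 0.0203, or 0.0654 without the replicate block). Sod2 had 1464, 1597 and 1540 in AA and 1803, 1565 and 1493 in control replicates by the brightest probe set (log2 fold change -0.10, adjusted p = 0.616). A dimmer Sod2 probe set, with 223, 269 and 285 in AA against 366, 416 and 364 in control replicates, passed as lower (log2 fold change -0.52, adjusted p = 0.0230). The brightest Sod1 probe set gave -0.19 (adjusted p = 0.254), and its second 0.03.

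The 7 glutathione S-transferase genes, whose enzymes join glutathione to electrophiles, had a median of -0.12 and 0 passed limma in either direction (at an unadjusted p under 0.05, Gsta4 and Gstm1 were lower and Mgst3 was higher). Over all 18193 genes, 1943 were higher and 2344 lower at that unadjusted threshold. Gstm1 had 334, 432 and 447 in AA, below the 476, 527 and 510 of control replicates (log2 fold change -0.29, adjusted p = 0.137). A second Gstm1 probe set, with means of 403 in AA and 429 in control arrays, overlapped (log2 fold change -0.06, adjusted p = 0.891). Dimmer Gstm1 probe sets gave -0.22 and -0.59, and none passed. Mgst3 had 574, 418 and 360 in AA against 350, 363 and 336 in control replicates, where AA replicate 1 alone lay far above (log2 fold change 0.38, adjusted p = 0.156). Gstp1, Gstm2 and Gstt1 had 0.05, 0.00 and -0.12. Gsta4 and Mgst1 lay below the median signal of all probe sets, and Gsta4 had 1.44, 3.17 and 3.15 in AA against 5.59, 8.49 and 14.8 in control replicates (log2 fold change -1.93, adjusted p = 0.121).

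**Figure D4:**
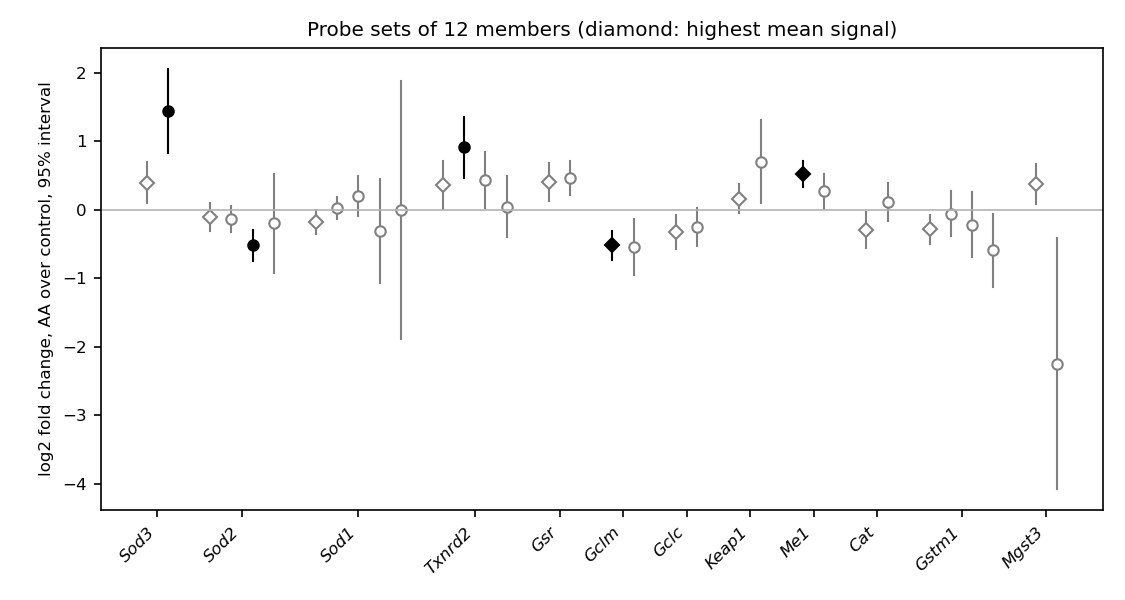
Log2 fold change (AA over control, vertical axis) with 95% interval for every probe set of 12 members, with a diamond for the brightest probe set of each gene and filled symbols where limma passed. In Sod3, Sod2 and Txnrd2 a dimmer probe set passed while the brightest did not.

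All 35 members together had 72 probe sets, of which 3 passed as higher and 4 as lower. Counted by any of its probe sets, a gene passed as higher for Me1, Sod3 and Txnrd2, and as lower for Gclm, Mt2, Nqo1 and Sod2. Matching counts over all probe sets, or over all genes by this rule, were not made. A gene with more probe sets has more chances to pass, so these counts are no result about the members. Whether the probe sets of a gene read different transcript ends or isoforms was not tested.

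Beyond the 39 genes, 8 lists of related genes (166 genes, 156 measured) held 14 that rose and 14 that fell, with a median log2 fold change of 0.02 beside -0.02 over all genes. Over all genes 4.07% were called higher and 3.85% lower. Of these 28 genes 12 lost their call without replicate 2 and 16 kept it, and 9 passed the methods' t-test at an unadjusted p under 0.01. Among 20 partners and regulators of NRF2 (median -0.11), 3 fell. Nfe2l1, the NRF2 relative that activates proteasome genes, had 574, 652 and 520 in AA replicates and 1085, 954 and 1082 in control replicates (log2 fold change -0.83, adjusted p = 0.00405). Bach2, a repressor that binds ARE-like sites, fell by 0.98 and Sesn3, a sestrin, by 0.77 on the log2 scale (adjusted p = 0.0116 and 0.00140). Among 16 genes of the thioredoxin, glutaredoxin and methionine sulfoxide systems (median -0.11) 2 fell. Txnip, which binds and inhibits thioredoxin, had 294, 395 and 412 in AA against 843, 795 and 908 in control replicates (log2 fold change -1.20, adjusted p = 0.000839), and Glrx, glutaredoxin, fell by 0.67.

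Of 32 measured genes of glutathione metabolism (median 0.03) 1 rose and 3 fell. Slc3a2, the heavy chain of the cystine and glutamate exchanger and of other amino acid transporters, had 925, 1022 and 971 in AA against 1604, 1437 and 1497 in control replicates (log2 fold change -0.65, adjusted p = 0.00399). Chac1, which degrades glutathione, and Abcc1, which exports glutathione conjugates, fell by 0.66 and 0.64. Ggct, which acts on gamma-glutamyl amino acids, rose by 1.13 (adjusted p = 0.0107). Of 15 genes of NADPH supply (median 0.18) 3 rose and 1 fell. Idh1, the cytosolic isocitrate dehydrogenase, had 3175, 2896 and 2757 in AA against 1400, 1499 and 1604 in control replicates (log2 fold change 0.92, adjusted p = 0.000888). Me2, the mitochondrial malic enzyme, had 549, 450 and 431 in AA against 270, 207 and 156 in control replicates (log2 fold change 1.23, adjusted p = 0.000797), and unlike Me1 its groups did not overlap. Taldo1, transaldolase, rose by 0.39, and the mitochondrial folate enzyme Mthfd2 fell by 0.61.

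Beside the metallothioneins, 18 genes of metal handling (median 0.23) held 5 that rose and 1 that fell, where all genes gave 4.07% and 3.85%. Of these 6 genes only Slc31a1 kept its call without replicate 2, and Slc30a7, Slc39a7 and Slc39a14 lost theirs after median centring. Slc30a1, which exports zinc across the plasma membrane and is itself an MTF1 target, had 101, 123 and 99.2 in AA against 177, 184 and 171 in control replicates (log2 fold change -0.70, adjusted p = 0.0142). Slc31a1, which imports copper, had 614, 549 and 588 in AA against 369, 365 and 295 in control replicates (log2 fold change 0.81, adjusted p = 0.00353). The zinc transporters Slc39a7, Slc39a14 and Slc30a7 rose by 0.39 to 0.57, and Slc39a13, which the rule for named genes leaves out and which is named here after its values were seen, by 0.65. The log2 fold change of Mtf1 itself was -0.05 (adjusted p = 0.893).

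In the other 3 lists, 24 genes of quinone, carbonyl and heme detoxification (median 0.02) held Blvrb, a biliverdin reductase, as higher (0.43, adjusted p = 0.0426, or 0.0972 without the replicate block) and Tfrc, the transferrin receptor, as lower (-0.61, adjusted p = 0.0184). Among 14 measured oxidant sources (median -0.02), Ncf1, a subunit of the phagocyte NADPH oxidase, had 288, 117 and 71.1 in AA against 24.6, 19.4 and 8.40 in control replicates, so the AA replicates differed widely among themselves but did not overlap with control replicates (log2 fold change 3.06, adjusted p = 0.000382). Lox, the collagen-crosslinking lysyl oxidase, which releases hydrogen peroxide, rose by 0.72, and Ero1a, an oxidase of the endoplasmic reticulum, fell by 0.65. Among 18 genes of selenoproteins and of their synthesis (median 0.01), Selenos and Selenom rose by 0.48 and 0.57, and Sephs1 and Selenow fell by 0.54 and 0.48.

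**Figure D5:**
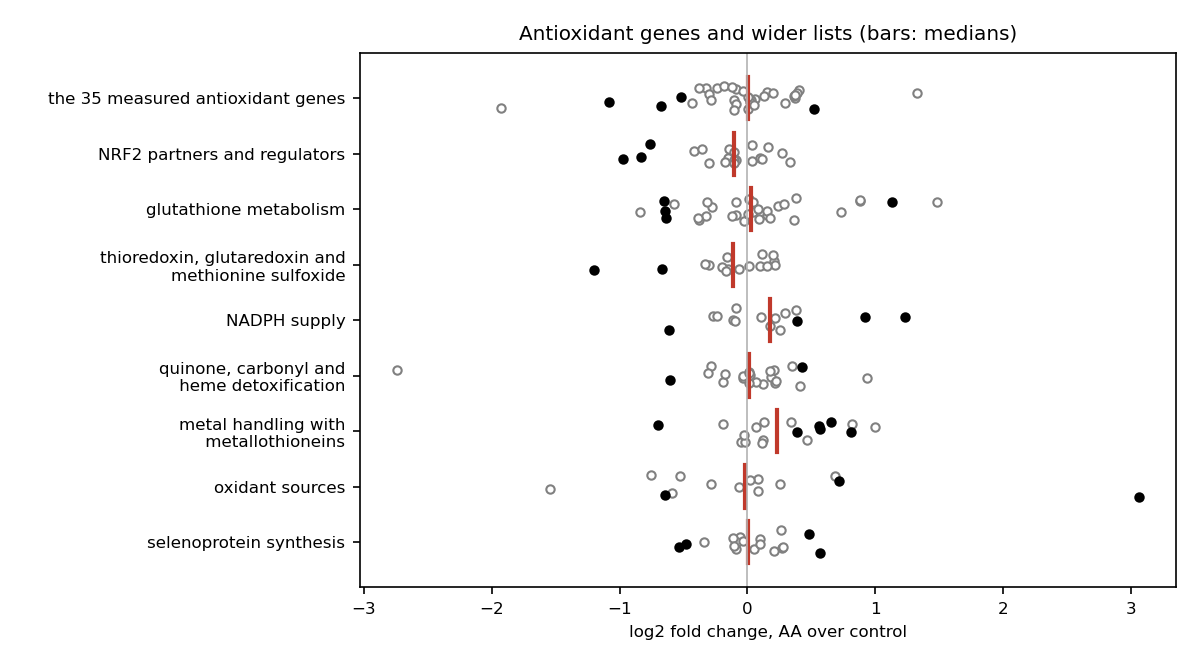
Log2 fold change (AA over control, horizontal axis) of each measured gene in the antioxidant set and in 8 wider lists, with filled points for genes that passed limma and red bars at list medians. The point at 3.06 is Ncf1, and the metal handling list holds 5 filled points right of 0.

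By mean signal over the 6 arrays, all 9 measured osteoblast markers were above the median signal of all probe sets. Dmp1 exceeded the median of its own array only in AA replicate 1 (73.8), with 5.14 to 10.4 on the others. Phex did so only in AA replicate 1 (39.83) and control replicate 1 (20.65), with 4.17 to 15.31 on the others. The summed signal of the 9 markers was 21850 to 29780 in AA and 15930 to 19060 in control arrays. Alpl, Ibsp, Dlx5 and Ifitm5 passed as higher in AA. Of 10 macrophage and osteoclast markers, 5 had a higher and 5 a lower mean in AA (median log2 fold change 0.10). Their summed signal was 2056 to 2558 in AA against 1421 to 1544 in control arrays, most of that difference being Ctsk (means of 1798 in AA and 1021 in control arrays), Csf1r and Ctsk passed as higher, and only Csf1r, Lyz2 and Ctsk of 10 were above the median signal. Ptprc and Itgam, pan-leukocyte and myeloid surface genes, had mean signals of 2.83 and 1.77 in AA against 1.99 and 2.61 in control arrays. Chondrocyte markers summed to 494 to 589 in AA against 378 to 441 in control arrays, but 4 of the 7 had a lower mean in AA (median -0.12). Only Col2a1 passed (means of 306 in AA and 138 in control arrays), and Sox9 had means of 169 in AA and 220.4 in control arrays. The part of these in the values of Ncf1, Sod3 or the metallothioneins was not tested. The array medians were 16.2 to 16.9 in AA and 14.9 to 17.7 in control arrays. The Gapdh 3′ to 5′ signal ratio was 0.791 to 0.800 in AA and 0.807 to 0.920 in control arrays, highest in control replicate 3. The actin ratio was 1.35 to 1.45 in AA and 1.39 to 1.79 in control arrays, again highest in control replicate 3, and the part of this in the results was not tested.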

How the data were processed

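RNA of 3 AA and 3 control cultures had been hybridized to Mouse Genome 430 2.0 arrays (Affymetrix). Deposited values were linear MAS5 signal intensity (version not stated in the submitters' notes), scaled to a 2% trimmed mean of 150 per array, with no detection calls and no per-probe values. The methods of the study name quantile normalization and GC-RMA in Partek instead, so the deposited intensities are not those analysed there. Probe-level background and probe sequence could not be reexamined.

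From 45101 probe sets, 64 control sets were removed. The remaining 45037 were converted to log2, quantile normalized and fitted in limma 3.58.1 (R 4.3.3) with the replicate number as a block, since the methods name paired tests, and with a trended prior variance (2 residual and 6.18 prior degrees of freedom). Benjamini-Hochberg adjustment ran over every probe set fitted, with a threshold of 0.05. Fold changes are AA over control. Probe sets annotated to 1 gene alone (34945) gave 18193 genes, while 932 named several genes and 9160 none, and RefSeq (GRCm38.p6) changed 0 symbols. The fit was tested on simulated data whose spread followed signal by design. That simulation cannot test whether the variance of the real arrays follows signal. Per-array precision is limited by the 3 arrays per group, and no pair of arrays was identical.

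All 39 members were accounted for. Those past the test and both metallothioneins are given on every array, and of each wider list up to 4 genes per direction with the smallest p. Members and lists were chosen with earlier results of these data known. Alternatives were other scalings, a pseudocount of 50, filters on low signal, a fit without the block, the methods' t-test, other probe set rules and each array left out.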

Additional observations from a re-analysis of the deposited data

How the results depend on the processing

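Over all 45037 probe sets, dim ones included, the deviations of same-numbered arrays from their group means correlated at 0.017, 0.004 and 0.01. The order of replicate numbers was the same in both groups for 28.6% of members and 19.6% of all genes. Whether the numbers pair the cultures is not settled by these values. Without the replicate block 0 members were higher (Me1 lost its call) and 3 were lower, and over all genes 660 were higher and 667 lower, against 740 and 700 with it. No other member's call changed under the block.

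The count of members higher in AA, 1 in the analysis reported, was 2 over probe sets above the median signal or above its upper quartile (Gpx7 joined Me1), 3 when any probe set of a gene could pass (a rule chosen after seeing the data), and 0 without the trended variance, under the methods' t-test (at an unadjusted p under 0.01 and after Benjamini-Hochberg) and at an unadjusted limma p under 0.01 with a fold of at least 1.5. The count of members lower, 3, was 0 without the trended variance and 0 under the methods' t-test after Benjamini-Hochberg. At that test's unadjusted p under 0.01 it was 3, but with Nfe2l2 in place of Gclm, and at an unadjusted limma p under 0.01 with a fold of at least 1.5 it was 2 (Gclm lost). With 1 pair left out 1 member was higher and 2 to 4 were lower. With 1 array left out and no block, 0 to 1 were higher and 1 to 4 lower, and Mt2 was the one that always passed. The 1 higher was Gpx7, without control replicate 3 (limma adjusted p = 0.0337), and Me1 passed in none of these 6 fits. Cat was among the 4 lower without control replicate 1 (limma adjusted p = 0.0418).

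The median log2 fold change of the peroxidases, 0.04, was 0.12 on the signals as deposited and -0.021 to 0.11 with 1 pair left out. That of the NRF2 targets, -0.09, was -0.11 to -0.0216 with 1 array or pair left out, the last without AA replicate 1 and without the block. That of the metallothioneins was -0.81 to -0.65 in these leave-outs. No called member changed sign under any alternative, and 0 to 4 members without a call did so per alternative. Median centring moved the median of all genes to -0.07, against -0.02, and gave 473 genes higher and 757 lower. Of the 28 wider-list genes that passed, 0 did so without the trended variance or under the methods' t-test after Benjamini-Hochberg, 9 under that test at an unadjusted p under 0.01 (Nfe2l1, Txnip, Slc3a2, Idh1 and Slc31a1 were among the 19 lost), 15 without the block and control replicate 2, 21 after median centring (Taldo1, Blvrb, Slc30a7, Slc39a7, Slc39a14, Selenos and Selenow were lost) and 16 without replicate 2 (Bach2, Ggct, Taldo1, Blvrb, Slc30a1, Slc30a7, Slc39a7, Slc39a13, Slc39a14, Ero1a, Sephs1 and Selenom were lost). Unless stated, the cause of a change was not tested.

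Limits: the arrays give no detection call, so dim probe sets such as those of Gpx3, Gsta4 and Mgst1 have wide intervals and no stated background. Prdx1, Prdx5, Prdx6 and G6pdx were not analysed here.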
